A study of Mus musculus with 4 samples.

Results

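Microglia are the resident immune cells of the brain, and 1138 of them were found among 26350 nuclei of mouse cortex profiled by single-nucleus RNA sequencing. The cortex came from wild-type C57BL/6JRj females of about 12 weeks, and the labels name no transgene, deletion or drug in either group. There were 2 biological replicates of non-pregnant controls and 2 of pregnant females, which were killed at E13.5, counted in embryonic days after timed mating. Each replicate gave 1 library and is called a mouse here, although the labels do not say whether animals were pooled. All nuclei were isolated in buffers with actinomycin D, which blocks transcription, and the sources used here do not give the area of cortex. Members were chosen by measured values: a nucleus was counted as a microglial one when it held at least 5 unique molecular identifiers (UMIs, each standing for 1 captured RNA molecule) of Cx3cr1, Csf1r, P2ry12, Inpp5d, Siglech and Ikzf1 together. It was also limited to 1 UMI of the neuronal genes Slc17a7, Gad1 and Gad2, to 2 of the myelin genes Mog, Mag and Mobp, and to 1 of the macrophage genes Mrc1 and F13a1.

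Microglia descend from yolk sac macrophages and live in the tissue for long periods, where they survey their surroundings with moving processes, take up debris and synapses and release cytokines. They depend on the growth factor receptor CSF1R, sense the neuronal chemokine fractalkine through CX3CR1 and detect nucleotides from damaged cells through P2RY12. TGF-beta signalling keeps them in the resting state known as homeostatic, and inflammation, interferons or disease shift them to other states with their own sets of genes.

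The deposited matrices held 6357 to 6932 barcodes and 97875766 to 116860425 UMIs per library. Nuclei with under 500 genes or over 5% mitochondrial UMIs were left out. Of 109 barcodes found in more than 1 library, none was shared between microglia. Where 4 values stand without a library name, the first 2 belong to non-pregnant replicates 1 and 2 and the last 2 to pregnant replicates 1 and 2. Expression is given as CPM, a gene's share of all UMIs of the microglia of a library on a scale where the whole is 1000000. Changes are log2 fold changes, positive where pregnant mice were higher, each with a standard error (SE) from the fit. Reads come from the 3' end, CPM are not scaled to transcript length, and levels are not compared between genes.

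The rule took 344 and 320 nuclei from the non-pregnant and 207 and 267 from the pregnant libraries. Their marker sum had a median of 23 UMIs, with quartiles of 18 and 30 and a maximum of 67. The threshold lay in a sparse region: 7 nuclei had exactly 5 marker UMIs, 4 nuclei outside had 4 and met the other limits, and 39 members had 5 to 9. A further 235 nuclei with 5 or more marker UMIs were left out, 204 of them through the neuronal genes, 31 through the myelin genes and 23 through the macrophage genes, some through more than one. Microglia were shallow, with a median of 2613.5, 3301.5, 2723 and 2956 UMIs per nucleus against 15217 to 20494 in excitatory neurons. They held 1604.5, 1816.5, 1652 and 1770 genes per nucleus at the median.

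Each gene of the rule was detected in most members, which the rule itself brings about and which is given as a description. Inpp5d, a lipid phosphatase of immune cells, had a UMI in 97.6% to 99.4% of microglia across libraries and in 3.33% to 4.60% of excitatory neurons. Cx3cr1 had one in 82.1% to 90.9%, Csf1r in 86.0% to 90.3%, Siglech in 89.8% to 93.8% and Ikzf1 in 87.4% to 95.9%. P2ry12 was found in 90.8% to 96.9% of microglia and in 19.6% to 25.9% of the much deeper excitatory neurons. After each nucleus was thinned to 2000 UMIs, which left out 37, 14, 20 and 18 microglia and 4, 4, 5 and 15 excitatory neurons as shallower, the P2ry12 shares were 87.0% to 93.1% and 2.73% to 3.10%. Csf1r had CPM of 815, 866, 772 and 818, and Cx3cr1 had 867, 1051, 752 and 788.

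Markers outside the rule bore out the label. All 13 homeostatic genes on the list were detected in microglia. Tmem119, a surface protein of homeostatic microglia, reached 140.3, 154, 115 and 140.3 CPM against 0.331 in neurons. Sall1, the transcription factor that sets microglia apart from other macrophages, reached 239, 299, 206 and 234 CPM against 0.984 in neurons. Markers of other immune cells were mostly at or near 0. The 6 markers of border-associated macrophages summed to 2 UMIs in all 4 libraries, with Cbr2, Clec12a, Ms4a7 and Pf4 at 0, although the rule itself limits macrophage genes, and 5 neutrophil markers summed to 0. At this depth 0 UMIs over all microglia allows up to 0.834 CPM by counting error. Monocyte markers stood at 3.07 to 11.0 CPM with Ly6c2, Chil3 and S100a4 at 0. T and NK cell markers gave 29 UMIs in non-pregnant replicate 2 and 2 to 4 in the other libraries. The 5 B cell markers stood at 36.9, 60.1, 47.3 and 34.3 CPM against 3.62 in neurons, nearly all from the immunoglobulin gene Ighm, with Cd79a and Ms4a1 at 0.

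Genes with the largest ratio of microglial CPM to the CPM of all other nuclei describe the cells further, with no test, since the rule chose the cells. Among those of at least 100 CPM in microglia, the top 12 with an established name outside the rule were Nlrp1c-ps, Abi3, Il21r, Bin2, Rhoh, Tmem273, Susd3, Vav1, Csf3r, Ly86, Mlph and Runx1. They include Abi3, an actin regulator of microglial processes, Vav1 and Rhoh of immune receptor signalling, Csf3r, the receptor of granulocyte colony-stimulating factor, and Runx1, a transcription factor of blood cells. Abi3 had 265, 319.7, 266 and 249 CPM, and Il21r, an interleukin receptor, had 178, 187, 140.2 and 156.

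PU.1, encoded by Spi1, is the factor that directs macrophage and microglial genes, and its best-known binding sequence contains the letters GAGGAAGT. RefSeq promoters of build GRCm38.p6, cut to the 250 bases before the start, were matched by symbol to 28 of the 33 named genes among the 40 leading ones. Those 8 letters, on either strand and with no other motif searched, occurred in 3 of the 28 (10.7%) and in 755 of all 27025 genes (2.79%). The 3 promoters are shown because they are the leading microglial genes that carry the letters, which are in capitals on whichever strand they lie. The match is a description and was not shown to be a bound site.
Vav1 (chr17:57278850-57279099, plus strand): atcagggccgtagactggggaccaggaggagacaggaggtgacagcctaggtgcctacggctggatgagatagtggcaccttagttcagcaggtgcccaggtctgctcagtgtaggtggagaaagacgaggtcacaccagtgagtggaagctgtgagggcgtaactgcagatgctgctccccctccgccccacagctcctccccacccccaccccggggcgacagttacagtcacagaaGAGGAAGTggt
Nlrp1b (chr11:71230734-71230983, minus strand): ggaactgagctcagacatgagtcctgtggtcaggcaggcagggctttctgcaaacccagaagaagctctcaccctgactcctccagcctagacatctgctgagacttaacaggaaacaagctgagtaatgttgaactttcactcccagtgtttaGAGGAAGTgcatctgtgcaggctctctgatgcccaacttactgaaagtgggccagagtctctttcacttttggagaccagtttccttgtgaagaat
Pik3cg (chr12:32208471-32208720, minus strand): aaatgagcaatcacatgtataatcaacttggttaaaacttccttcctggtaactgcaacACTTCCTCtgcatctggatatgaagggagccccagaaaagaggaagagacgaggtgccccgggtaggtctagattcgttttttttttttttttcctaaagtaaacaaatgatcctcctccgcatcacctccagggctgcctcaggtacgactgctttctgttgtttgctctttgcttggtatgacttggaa
The first base of the match lies 11 bases before the start in Vav1, 96 in Nlrp1b, an inflammasome sensor, and 191 in Pik3cg, a lipid kinase of white blood cells. In microglia Vav1 had 255, 279.98, 219 and 225 CPM, and Spi1 itself had 329, 361, 298 and 282 (log2 fold change -0.26, SE 0.136, adjusted p = 0.557 by edgeR). The Nlrp1 genes are close copies of each other, so the split of UMIs between Nlrp1b and Nlrp1c-ps is uncertain.

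The first comparison asks whether microglia make up another share of cortical nuclei in mid-gestation. They made up 5.03% (95% Wilson interval 4.53 to 5.57) and 5.11% (4.59 to 5.68) of kept nuclei in the non-pregnant libraries. In the pregnant libraries the shares were 3.16% (2.76 to 3.61) and 3.99% (3.55 to 4.49). Both pregnant libraries lay below both non-pregnant ones. The means were 5.07% ± 0.0598 and 3.58% ± 0.591 (SD, n = 2 each). With edgeR's quasi-likelihood test over 9 classes of nuclei the share fell by 0.50 on the log2 scale (SE 0.169, adjusted p = 0.0395). The exact two-sided permutation test over the 4 shares gave p = 0.333, the smallest that 2 against 2 allows. Intervals cover counting error only.

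**Figure D1:**
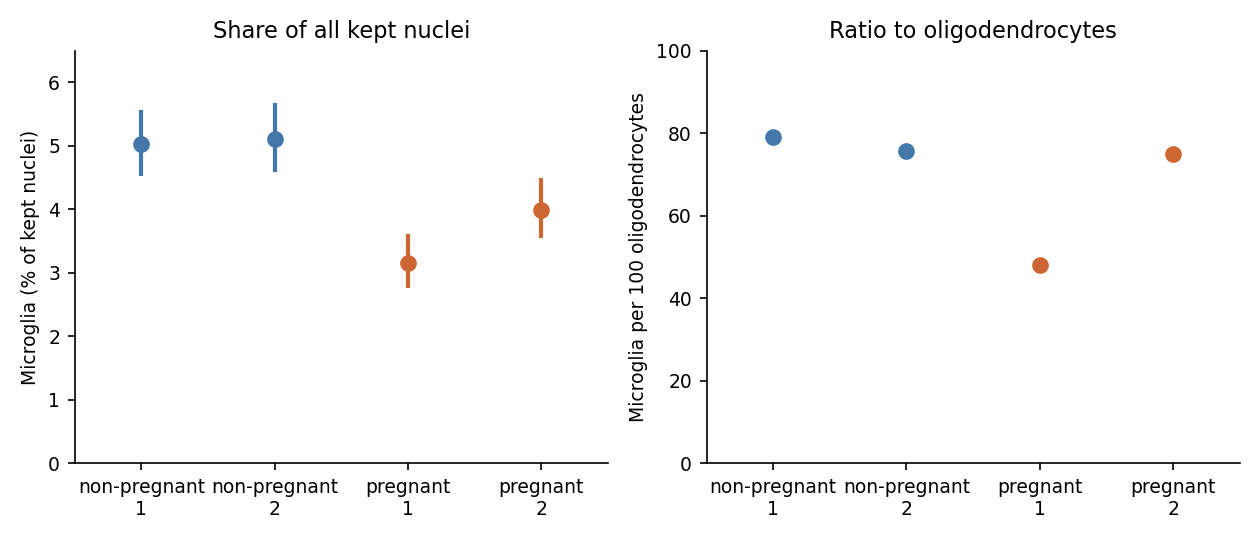
Microglia in each library as a percentage of all kept nuclei with the 95% Wilson interval (left) and per 100 oligodendrocytes (right), 1 point per mouse, blue for non-pregnant and orange for pregnant. The pregnant shares, 3.16% and 3.99%, lie below the non-pregnant ones, 5.03% and 5.11%, while pregnant replicate 2 has 75.0 microglia per 100 oligodendrocytes, close to the 75.7 of non-pregnant replicate 2.

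Other classes moved in the same libraries. Astrocytes numbered 151, 164, 301 and 262, endothelial cells 10, 7, 26 and 19, and nuclei of none of the classes 617, 364, 824 and 1059, and the share of each of these 3 rose (adjusted p 0.0133, 0.0154 and 0.0135 by edgeR). Per 100 oligodendrocytes, whose share changed by -0.14 (SE 0.163, adjusted p = 0.466 by edgeR), there were 79.1, 75.7, 48.0 and 75.0 microglia, so that the ratio was low in pregnant replicate 1 only. Per 100 excitatory neurons there were 7.80, 7.63, 5.29 and 6.91, lower in both pregnant libraries. Among nuclei that are not neurons the share was 22.1% ± 1.49 and 11.9% ± 1.40 (SD, n = 2 each), a log2 change of -0.89 (adjusted p = 0.0156 by edgeR), in a total that holds the classes that rose. With the nuclei of none of the classes taken out of the total, an alternative chosen after seeing the data, the microglial log2 change was -0.39 (adjusted p = 0.172 by edgeR) and the call was lost. It was also lost on leaving out any 1 library, with log2 changes of -0.34 to -0.68. What the tissue pieces held was not measured, so fewer microglia and another make-up of the pieces cannot be told apart.

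The main comparison across genes sets the summed UMIs of microglia of the 2 pregnant mice against those of the 2 non-pregnant ones. Most genes that passed were neuronal genes at low levels, all of them higher in pregnancy, while no gene of the microglial lists passed. Of 10034 genes tested with edgeR, 103 rose (1.03%) and 1 fell at an adjusted p below 0.05, in all 1.04% of those tested. A gene was flagged as neuron-enriched, and so as possible RNA from neurons, when its CPM in neurons was over 2 times that in microglia. Of the 104 called genes, 97 were neuron-enriched, which is 7.9% of the 1228 such genes tested, against 7 of the other 8806 (0.0795%). Of the 104, 6 were predicted genes that are not named, and 1001 of the 10034 tested genes had an unadjusted p under 0.05. The count was 823 without non-pregnant replicate 1 and 257 without non-pregnant replicate 2, and it was 6 when only nuclei with no UMI of Slc17a7, Gad1 or Gad2 were taken.

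The 12 named genes with the smallest p that rose were all neuron-enriched. Tshz2, a zinc finger factor of some cortical projection neurons, had 5, 3, 74 and 103 UMIs, or 5.12, 2.77, 117 and 114 CPM. Both pregnant libraries were far above both others, with a log2 fold change of 4.83 (SE 0.344, adjusted p = 1.27e-05 by edgeR). Sgcz, a sarcoglycan, had 58.4, 53.6, 416 and 284 CPM (log2 fold change 2.63, SE 0.203, adjusted p = 6.38e-05 by edgeR). Khdrbs2, an RNA-binding protein of neurons, had 13.3, 7.39, 94.5 and 96.1 CPM (3.20, SE 0.314, adjusted p = 2.61e-04 by edgeR). Mmp16, Nxph1, Tenm4, Slit3, Galnt13, Cntn6, Dab1, Cntn1 and Robo2 rose by log2 1.84 to 3.01. They encode a membrane protease, a ligand of neurexins, a teneurin, an axon guidance ligand, a glycosyltransferase, 2 contactins, an adaptor of reelin signalling and an axon guidance receptor. Without the 16 nuclei of high depth described below, Robo2 alone of the 12 was still called (1.39, adjusted p = 0.0300 by edgeR). Sgcz was then at 0.55 (adjusted p = 0.588), Mmp16 at 0.60 (0.831) and Nxph1 at 0.53 (0.871), and Tshz2, Khdrbs2, Slit3 and Cntn6 had too few UMIs to be tested. The Robo2 call was lost when nuclei with a UMI of Slc17a7, Gad1 or Gad2 were left out too (1.10, adjusted p = 0.357 by edgeR). It was also lost on leaving out any 1 library besides the high-depth nuclei, with log2 fold changes of 1.20 to 1.62.

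Neuronal RNA as a whole was higher in pregnant microglia. The 10 markers on the neuron list (among them Syt1, Snap25, Rbfox3, Meg3, Grin2a, Camk2a, Nrgn, Celf4 and Grin1) made up 0.191%, 0.0949%, 0.2997% and 0.315% of microglial UMIs, against 1.59% to 1.68% in neurons. The pregnant libraries did not overlap the others, and the exact permutation test gave p = 0.333, the smallest possible. None of the 10 was called, and all 10 had a log2 fold change above 0 (median 1.04, beside -0.02 over all genes tested). In oligodendrocytes the same list stood at 1354, 709, 2544 and 2290 CPM, also higher in both pregnant libraries. Astrocytes had 6090, 4739, 7673 and 7281 CPM of the list, again higher in both pregnant libraries and above microglia in every library. The part of free neuronal RNA in the called genes was not tested.

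A few nuclei carried much of this RNA. In each library, nuclei with over 3 times the median UMIs of its microglia were set apart, a choice made after seeing the data. There were 5, 0, 4 and 7 of them, 16 in all, with 9222 to 26362 UMIs each. They met every limit of the rule, yet 10 of them held 142 to 431 UMIs of the neuron list, while the other 1122 microglia held at most 31. Those 10 came from non-pregnant replicate 1 (3 nuclei), pregnant replicate 1 (3) and pregnant replicate 2 (4). Scored against simulated doublets, the 16 reached 0.567 to 0.967 where the median of all microglia was 0.0333, and 7 were in the top 5% of their library. They held 6.67%, 0%, 11.2% and 12.4% of the microglial UMIs.

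**Figure D2:**
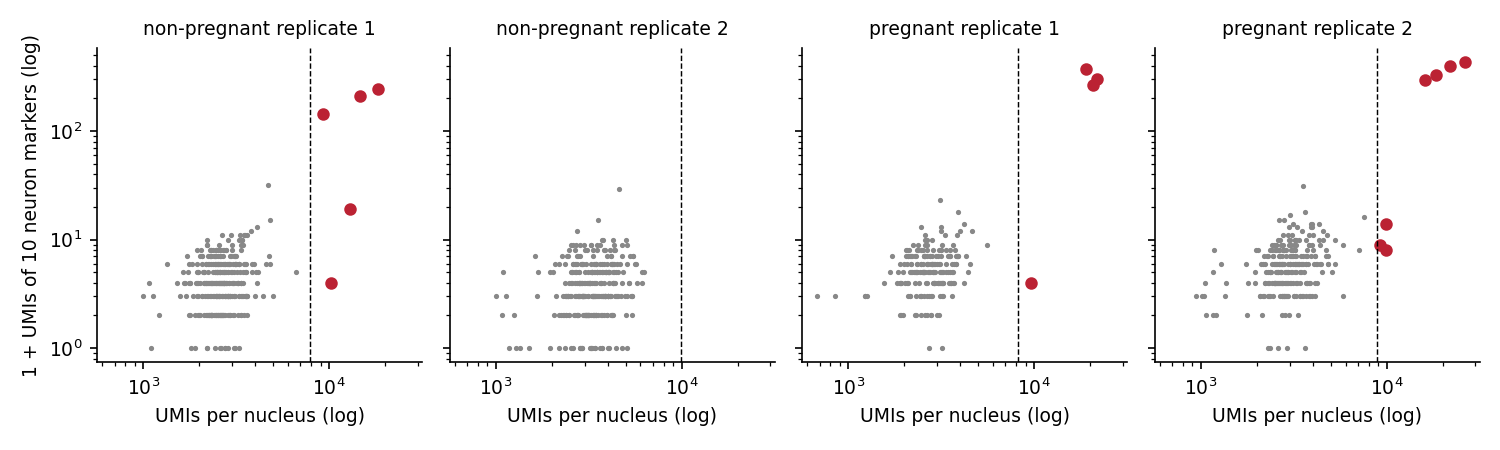
Each point is 1 microglial nucleus of the named library, placed by its UMIs (x, log scale) and by 1 plus its UMIs of the 10 neuron markers (y, log scale). Red points right of the dashed line are the 16 nuclei with over 3 times the median UMIs, and 10 of them stand far above all others on the y axis, none in non-pregnant replicate 2.

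For the neuron-enriched genes that rose, these nuclei supplied a median of 70.3% (25.6% to 94.9%) of the pregnant UMIs, and over 50% for 89 of the genes. Of Tshz2, 155 of the 177 pregnant UMIs came from them. Vcan, a proteoglycan of oligodendrocyte precursors and of some neurons, was called on 3, 4, 22 and 24 UMIs, of which 95.7% of the pregnant ones came from the high-depth nuclei. Its call was lost without pregnant replicate 1 (adjusted p = 0.0583 by edgeR). Without the 16 nuclei 9443 genes could be tested, 81 rose (0.858%) and 3 fell (0.0318%), in all 0.89%, and 14 of these 84 were among the 104 called before. Neuron-enriched genes then made up 50 of the calls, 5.78% of the 865 tested, against 34 of the other 8578 (0.396%). The flag was still set from the CPM of all microglia, the high-depth nuclei among them. Nrgn, a marker on the neuron list, is one of the 34, so a gene without the flag can still be a neuronal one. On also leaving out 1 library, 158, 32, 50 and 37 genes were called without non-pregnant replicates 1 and 2 and pregnant replicates 1 and 2, in that order.

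**Figure D3:**
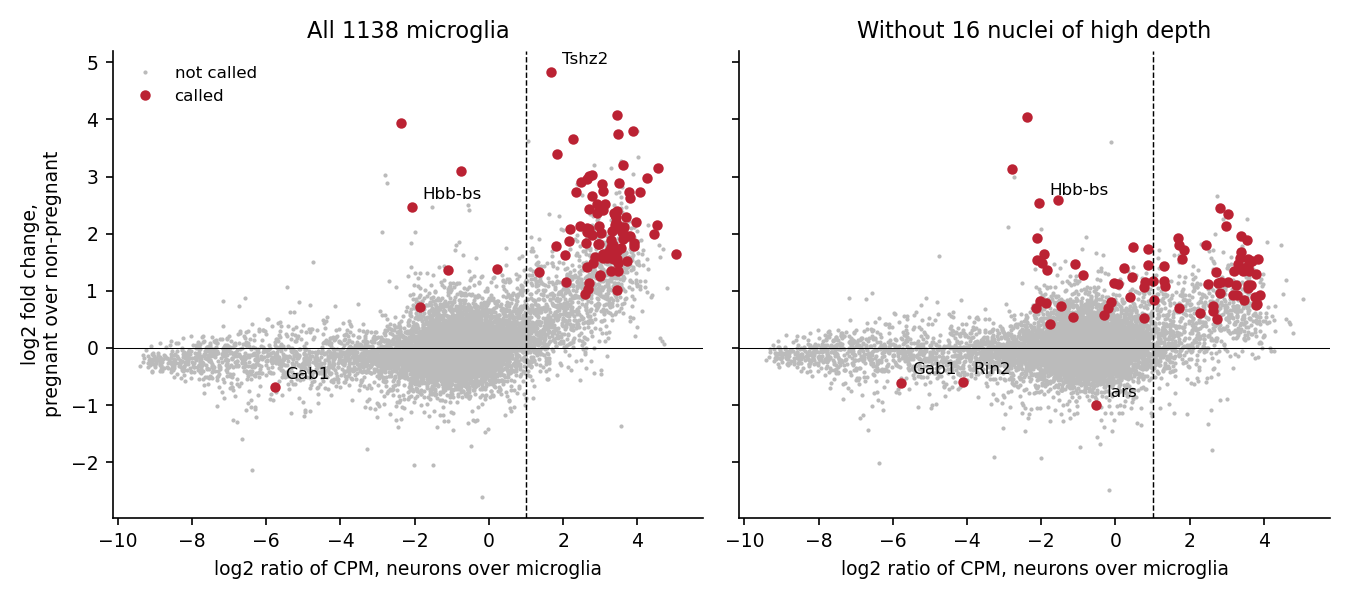
Log2 fold change between the groups, positive where pregnant mice were higher (y), of each tested gene against the log2 ratio of its CPM in neurons to that in microglia (x), with all microglia (left) and without the 16 nuclei of high depth (right), called genes in red. The dashed line marks a ratio of 2, and 97 of 104 called genes on the left and 50 of 84 on the right lie beyond it.

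Without the high-depth nuclei, 9 genes were called in all 4 fits that also left out 1 library, and they were named for that after their values were seen. All were higher in pregnancy, and among them were Dpp10, Magi2, Gabrb1, Map1b, Tenm2, Nalf1, Hbb-bs and Cmss1. Dpp10, Magi2, Gabrb1, Map1b, Tenm2 and Nalf1 are neuron-enriched genes of synapses, channels and the cytoskeleton. Magi2, a synaptic scaffold protein, had 40.6, 32.3, 99.4 and 112 CPM without those nuclei (log2 fold change 1.53, SE 0.235, adjusted p = 7.77e-05 by edgeR). Of the neuron list, Nrgn, Snap25 and Syt1 rose, though none of these was called in all 4 fits that also left out 1 library. With nuclei holding a UMI of Slc17a7, Gad1 or Gad2 left out too, Nrgn was still called and Snap25 and Syt1 were not (adjusted p 0.0460, 0.363 and 0.326 by edgeR). Without the high-depth nuclei the list stood at 0.137%, 0.0949%, 0.171% and 0.173% of UMIs. Neuronal RNA thus remained higher in both pregnant libraries after the nuclei were left out, by a smaller margin.

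Gab1 was the only gene that fell with all microglia counted, and it is not a neuronal gene. It encodes an adaptor that links growth factor and cytokine receptors to phosphoinositide and MAP kinase signalling. It had 313, 355, 133 and 177 UMIs, or 321, 328, 209.6 and 196 CPM. Both pregnant libraries lay below both others, with a log2 fold change of -0.69 (SE 0.138, adjusted p = 0.0280 by edgeR), one gene of 10034 (0.00997%). Among nuclei thinned to 2000 UMIs, 43.0%, 40.5%, 32.1% and 30.9% of microglia held a Gab1 UMI, against 0.431% to 0.909% of excitatory neurons (49.7%, 53.8%, 38.6% and 40.8%, against 2.54% to 5.04%, before thinning).

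Gab1 kept its direction and its call without the nuclei of high depth (-0.61, adjusted p = 0.0130 by edgeR). Its call was lost with DESeq2 (adjusted p = 0.389) and with edgeR without pregnant replicate 1 (0.103) or pregnant replicate 2 (0.237), where the log2 fold change was -0.76 and -0.63. It was also lost with the replicate block (0.127), a marker sum of at least 10 (0.0879) or no UMI of Slc17a7, Gad1 or Gad2 (0.0877), and, without the high-depth nuclei, on leaving out pregnant replicate 1 (0.0685) or 2 (0.349). Oligodendrocytes express Gab1 at 621 CPM, and the 8 oligodendrocyte markers in microglia stood at 169.98, 131, 200.1 and 171 CPM. The part of oligodendrocyte RNA in the Gab1 values was not tested. In oligodendrocytes themselves Gab1 changed by -0.15 (adjusted p = 0.761 by edgeR), and in astrocytes by -0.04 (adjusted p = 0.963 by edgeR). The difference from microglia was -0.48 (SE 0.203, adjusted p = 0.662) for oligodendrocytes and -0.64 (SE 0.209, adjusted p = 0.393) for astrocytes by edgeR's interaction test, so that the change was not shown to differ from that of other glia. In excitatory neurons Gab1 rose by 0.80 (adjusted p = 0.0241 by edgeR), and there the difference of -1.47 (SE 0.206, adjusted p = 1.69e-05) passed.

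The next genes by p with lower values in pregnancy did not pass with all microglia counted. Cd82, a tetraspanin that organises membrane receptors, had 49.2, 49.9, 22.1 and 24.3 CPM (log2 fold change -1.09, SE 0.290, adjusted p = 0.107 by edgeR). Rin2, a regulator of RAB5 and endocytosis, had 213, 288, 140.2 and 176 CPM, and Iars, an isoleucyl-tRNA synthetase, 79.9, 84.1, 48.8 and 44.2. These last 2 fell without the high-depth nuclei, with log2 fold changes of -0.59 (SE 0.154, adjusted p = 0.0402) and -1.002 (SE 0.244, adjusted p = 0.0249) by edgeR. In that setting Rin2 was called in 2 of the 4 fits that left out 1 library, with adjusted p of 0.770 without non-pregnant replicate 2, where its log2 fold change was -0.375, and of 0.534 without pregnant replicate 1. Iars was called in 1 of the 4, without non-pregnant replicate 1.

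**Figure D4:**
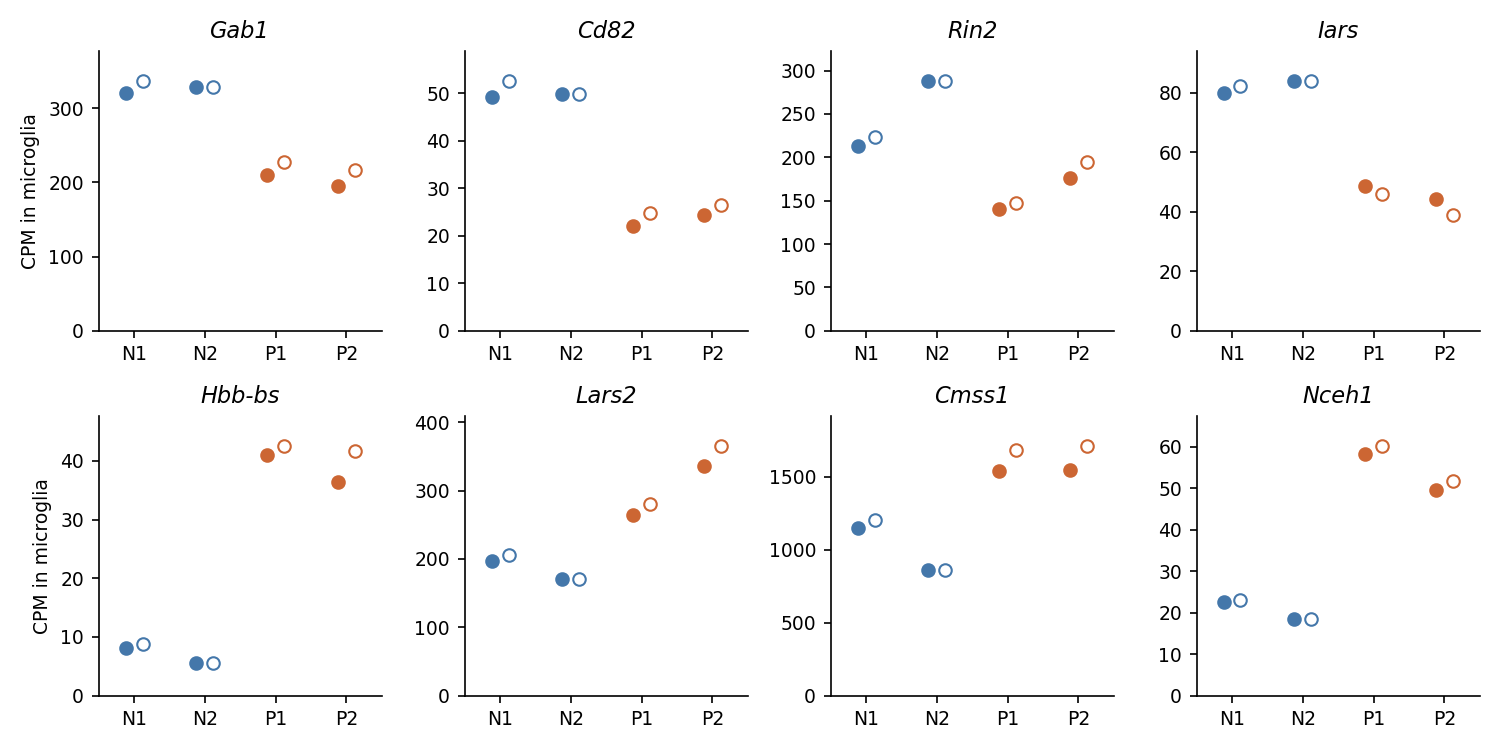
CPM in microglia of 8 genes in each library (N1 and N2 non-pregnant, P1 and P2 pregnant), filled points with all microglia and open points without the 16 nuclei of high depth. Gab1, Cd82, Rin2 and Iars are lower and Hbb-bs, Lars2, Cmss1 and Nceh1 higher in both pregnant libraries, and leaving out the nuclei moves each point little.

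The other called genes without the neuron-enriched flag were Vcan, Hbb-bs, Hba-a1, Lars2, Nceh1 and Pcsk1n. Haemoglobin genes belong to red blood cells. Hbb-bs had 8.19, 5.54, 41.0 and 36.5 CPM (log2 fold change 2.47, SE 0.404, adjusted p = 0.00770 by edgeR), and Hba-a1 had 2, 0, 12 and 14 UMIs and an adjusted p of 0.0494 by edgeR. That call was lost without non-pregnant replicate 2 (0.102) or pregnant replicate 1 (0.378), with the replicate block (0.142), a marker sum of at least 10 (0.134) and no neuronal UMI (0.265), and the Hbb-bs call with DESeq2 (adjusted p = 0.0524). Hba-a1 and Hba-a2 are near-identical copies, so the split between them is uncertain. The 5 red cell genes together stood at 19.5, 9.24, 91.4 and 81.8 CPM in microglia, 16.3, 6.30, 62.4 and 51.5 in oligodendrocytes and 8.78, 8.23, 22.1 and 20.1 in excitatory neurons. Every class named here thus had more haemoglobin RNA in both pregnant libraries. The difference of the Hbb-bs change between microglia and oligodendrocytes was -0.50 (SE 0.618, adjusted p = 0.975 by edgeR).

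Nceh1, an enzyme that hydrolyses cholesteryl esters in macrophages, had 22.5, 18.5, 58.3 and 49.7 CPM. Both pregnant libraries were above both others (log2 fold change 1.38, SE 0.297, adjusted p = 0.0404 by edgeR), also without the high-depth nuclei (1.40, adjusted p = 0.0130). In oligodendrocytes it changed by -0.10 and in astrocytes by 0.16, with adjusted p of 0.902 and 0.887 by edgeR. Against oligodendrocytes the difference of 1.55 (SE 0.328) did not pass with all microglia (adjusted p = 0.0589) and passed without the high-depth nuclei (1.47, adjusted p = 0.0243, both by edgeR). The Nceh1 call was lost with DESeq2 (adjusted p = 0.420) and, with edgeR, without pregnant replicate 1 (log2 fold change 1.25). Without the high-depth nuclei it was lost on leaving out non-pregnant replicate 2 (1.26) or pregnant replicate 1 (1.28). Pcsk1n, a secreted inhibitor of prohormone convertase, had 23.6, 17.6, 52.0 and 54.1 CPM (1.36, SE 0.296, adjusted p = 0.0432 by edgeR). The Pcsk1n call was lost with DESeq2 (0.464) and on leaving out non-pregnant replicate 2 (0.0638 by edgeR) or pregnant replicate 1 (0.0993) or 2 (0.114). The calls of Nceh1 and Pcsk1n were also lost with the replicate block (0.109 and 0.126), a marker sum of at least 10 (0.0567 and 0.126) and no neuronal UMI (0.0886 for both).

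Lars2, the mitochondrial leucyl-tRNA synthetase, had 197, 170.02, 265 and 336 CPM (0.71, SE 0.152, adjusted p = 0.0389 by edgeR), and it rose in oligodendrocytes too (0.67, adjusted p = 0.0413). The Lars2 call in microglia was lost with DESeq2 (adjusted p = 0.404), without pregnant replicate 2 (0.426 by edgeR), with the replicate block (0.173), with a marker sum of at least 10 (0.0828) and with no neuronal UMI (0.0886). Cmss1 missed with all microglia (1149.9, 861, 1539.5 and 1549 CPM, 0.61, adjusted p = 0.0504 by edgeR) and passed without the high-depth nuclei (0.71, SE 0.121, adjusted p = 4.07e-04). The shift was not shown to be particular to microglia: against oligodendrocytes the Lars2 difference was 0.08 (adjusted p = 1) and the Cmss1 difference 0.14 (adjusted p = 0.982), both by edgeR. Without the high-depth nuclei all 9 mitochondrially encoded transcripts tested had a log2 fold change above 0 (median 1.38), and 4 rose, mt-Co1, mt-Atp6, mt-Nd1 and mt-Nd4, beside 0.858% of all genes and a median of -0.00407 over them. With all microglia none of the 9 rose, and each of the 4 was called in only 1 or 2 of the 4 fits that also left out 1 library. mt-Co1, a subunit of cytochrome oxidase, had 15.4, 30.5, 55.0 and 66.8 CPM there. Mitochondrial RNA in a nuclear preparation comes from outside the nucleus, and its part in the other changes was not tested.

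Gene lists that describe microglial states and functions held 295 genes in 20 lists, of which 197 could be tested and none was called, against 1.04% of all genes. At an unadjusted p under 0.05 there were 21. Without the high-depth nuclei none of 192 was called, and with DESeq2 none was called either, but 17 were called without non-pregnant replicate 1 and 3 without non-pregnant replicate 2. The log2 fold change was below 0 for 149 of the 197 (75.6%, beside 52.0% of all genes tested), with a median of -0.17 beside -0.02 over all genes tested. Without the high-depth nuclei it was below 0 for 128 of the 192 (66.7%, beside 50.7% of all genes), the median was -0.08, and the medians of 15 of the 19 lists with a value in both settings lay closer to 0. Genes that are not neuron-enriched had a median of -0.06 with all microglia and -0.02 without the high-depth nuclei. The 6 genes of the rule, given as a description, were also all below 0 with all microglia (median -0.17, and -0.07 without the high-depth nuclei). In simulated counts the test recovered 63% of genes changed by log2 1 and 96% of those changed by log2 2, and smaller changes were not simulated. The simulated spread followed the trend over genes and not each gene's own. Changes were put only into genes above a minimum expected count in every library, so the rates do not cover list members of few UMIs.

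**Figure D5:**
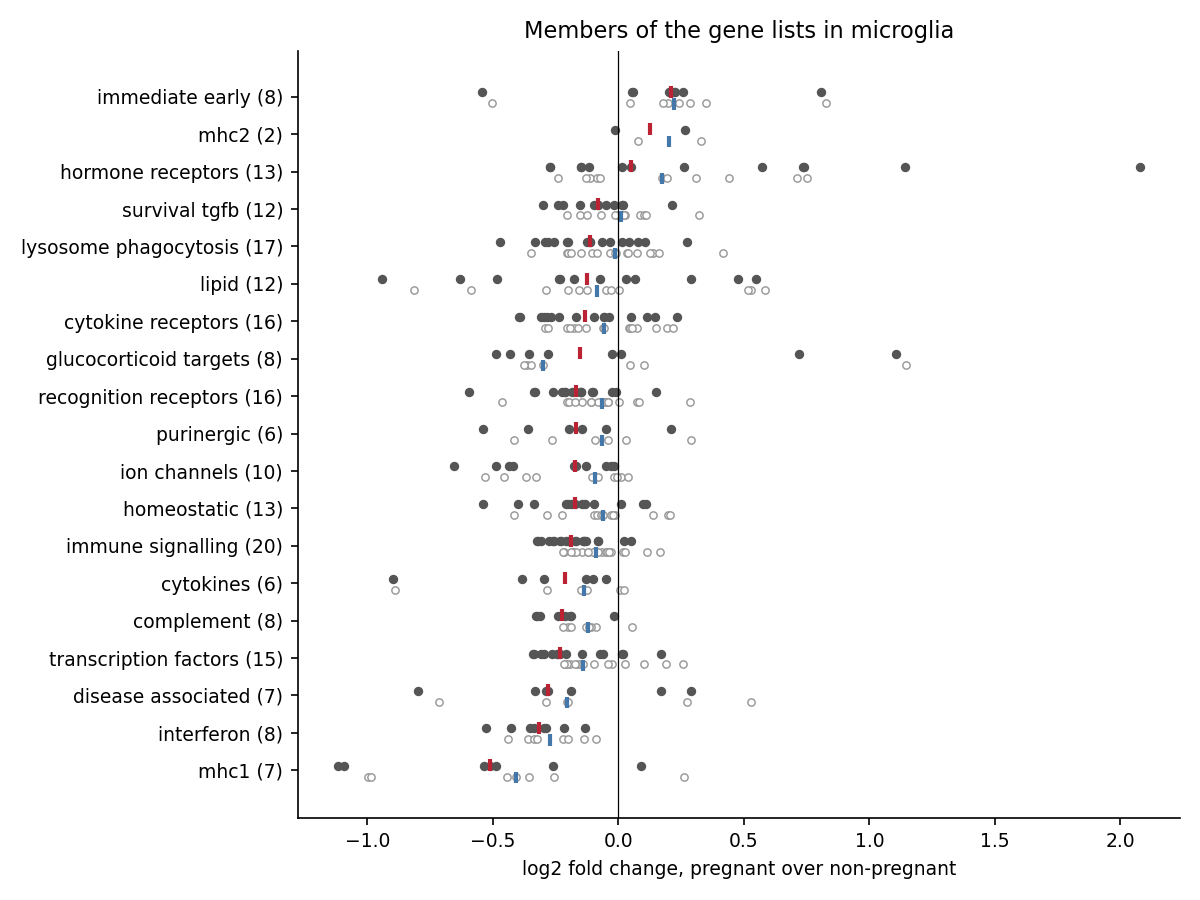
Log2 fold change, positive where pregnant mice were higher, for the tested members of the 19 lists with more than 1 gene tested (number tested in parentheses), filled points with all microglia and open points without the 16 nuclei of high depth. Red and blue ticks mark the 2 medians, which lie between -0.51 and 0.22, and no member was called.

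None of the homeostatic genes passed. Of 13 tested outside the rule, 10 were below 0, with a median of -0.17 (-0.06 without the high-depth nuclei). Fcrls, an Fc receptor-like protein, had 838, 700.4, 585 and 587 CPM (-0.40, SE 0.127, adjusted p = 0.219 by edgeR). Gpr34, a lysophosphatidylserine receptor, had 539.6, 632, 436 and 496 (-0.34, SE 0.137, adjusted p = 0.413 by edgeR). Both were lower in each pregnant library than in each non-pregnant one and neither passed. Selplg, a selectin ligand, had 583, 616, 545 and 546 CPM.

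Transcription factors of the microglial programme numbered 15, of which 12 were below 0 (median -0.23). Mef2a had 2610.1, 2481, 2644 and 2226 CPM, Mef2c 2012, 2140.1, 2020.1 and 1987, and Runx1 912, 1057, 851 and 829. Mef2 factors act at microglial enhancers, and the groups overlapped for Mef2a and Mef2c. Of the survival and TGF-beta genes 9 of 12 were below 0 (median -0.08, and 0.01 without the high-depth nuclei). Tgfbr1, the type I receptor for TGF-beta, had 4567, 4105, 3807 and 3274 CPM (-0.30, SE 0.126, adjusted p = 0.447 by edgeR).

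Receptors for debris and microbes gave 15 of 16 members below 0 (median -0.17). Sirpa, which reads the do-not-eat signal CD47, had 714, 705, 703 and 716 CPM, almost the same in all libraries. Trem2, the lipid and apolipoprotein receptor, had 137, 172, 137 and 168, with overlapping groups. Purine receptors and ectonucleotidases had a median of -0.17 over 6 genes. P2ry6, the UDP receptor that starts phagocytosis, had 400.4, 409, 323 and 312 CPM (-0.36, SE 0.129, adjusted p = 0.320 by edgeR). P2ry13, which binds ADP, had 88.1, 93.3, 59.9 and 65.2 (-0.54, SE 0.210, adjusted p = 0.381 by edgeR).

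The 8 complement genes tested were all below 0 (median -0.23). C1qa, C1qb and C1qc, which form the recognition molecule of the classical pathway, had log2 fold changes of -0.31, -0.24 and -0.33 (adjusted p 0.693, 0.624 and 0.617 by edgeR). C1qa had 109, 79.5, 66.2 and 84.0 CPM, with overlapping groups, and C3 had no UMI. Lysosomal and uptake genes had 12 of 17 below 0 (median -0.11). Mertk, a receptor for dying cells, had 2033, 2086, 2011 and 1823 CPM, and Ctss, a cathepsin of antigen processing, 561, 544, 479 and 451.

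Antigen presentation by MHC class I had the lowest median of the lists, -0.51 over 7 tested genes (-0.41 without the high-depth nuclei). H2-K1, a class I heavy chain, had 28.7, 22.2, 11.0 and 12.2 CPM (-1.12, SE 0.402, adjusted p = 0.320 by edgeR), and B2m, its light chain, 96.3, 90.6, 59.9 and 72.9 (-0.49, SE 0.208, adjusted p = 0.452 by edgeR). For both the pregnant libraries were below the others, and neither passed. H2-K1 and H2-D1 are close copies, so UMIs may be split between them. Interferon-stimulated genes had all 8 tested members below 0 (median -0.32), such as Trim30a with 161, 149, 129 and 138 CPM. The 7 class II genes together stood at 59.4, 46.2, 59.9 and 49.7 CPM, nearly all from H2-DMa and H2-DMb1, which help load peptides, while H2-Ab1 and Cd74 had 1 UMI each over all microglia and H2-Aa had none.

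Of 20 genes of disease-associated microglia 16 were detected and 7 tested, 5 of them below 0 (median -0.28). The list stood at 675, 701, 597 and 557 CPM. Spp1, Gpnmb, Lgals3 and Ch25h had no UMI, and Clec7a, Itgax and Cst7 had 1.11 CPM or less in each library. Cd9, a tetraspanin of that list, had 106, 152, 66.2 and 82.9 CPM (-0.80, SE 0.222, adjusted p = 0.134 by edgeR, and 0.0705 without the high-depth nuclei). Its groups did not overlap and it did not pass. Ctsb and Ctsd, both cathepsins, had -0.28 and -0.33, each with an adjusted p of 0.566 by edgeR.

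Cytokines and chemokines were below 0 in all 6 members tested (median -0.21), Tgfb1 with 158, 145, 145 and 149 CPM and Il18 with 145, 109, 139 and 102. Ccl4, a chemokine that microglia release fast, had 17.4, 0.924, 0 and 14.4 CPM, so that each group held 1 library with UMIs and 1 nearly without. Among cytokine receptors 12 of 16 were below 0 (median -0.13). Il6ra, which binds interleukin 6, had 403, 401, 293 and 323 CPM (-0.39, SE 0.130, adjusted p = 0.246 by edgeR). Kcnk13, the potassium channel that sets the resting potential of microglia, was the leading member of the ion channels, all 10 of which were below 0, with 273, 361, 246 and 229 CPM (-0.43, SE 0.161, adjusted p = 0.348 by edgeR). Of the 12 lipid genes tested 7 were below 0 (median -0.12), and Abcg1, a sterol exporter, had 73.7, 106, 63.0 and 55.3 CPM (-0.63, SE 0.244, adjusted p = 0.381 by edgeR). Genes of immune receptor signalling gave 18 of 20 below 0 (median -0.19), such as Dock2, a guanine exchange factor for Rac, with 1261, 1448, 1133 and 1239 CPM.

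Of 21 receptors for hormones 17 were detected and 13 could be tested, of which 8 were above 0 (median 0.05) and none was called. At an unadjusted p under 0.05 there were 4, all above 0, among them Thra, Thrb and Pgrmc1. Prlr, Esr2, Vdr and Gper1 had no UMI in any library, and Oxtr had 1 UMI in pregnant replicate 1. Esr1, the estrogen receptor alpha, had 43.0, 56.4, 44.1 and 58.6 CPM (0.05, SE 0.271, adjusted p = 0.978 by edgeR). The progesterone receptor gene Pgr had too few UMIs to be tested (7.17, 1.85, 9.45 and 11.1 CPM). Nr3c1, the glucocorticoid receptor, had 422, 481, 400.2 and 419 CPM (-0.15, SE 0.133, adjusted p = 0.770 by edgeR). The membrane component Pgrmc1 had 21.5, 22.2, 42.5 and 32.0 (0.74, SE 0.320, adjusted p = 0.466 by edgeR). Thrb, a thyroid hormone receptor that is neuron-enriched here, had a log2 fold change of 1.14 with all microglia and 0.44 without the high-depth nuclei (adjusted p 0.151 and 0.829 by edgeR).

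Fkbp5 and Nlrp3 were highest in non-pregnant replicate 1. Fkbp5, a chaperone induced by glucocorticoids, had 478, 276, 303 and 259 CPM, and 58.3% of thinned microglia of that library held a UMI against 36.3%, 38.5% and 35.3% in the others (68.3% against 53.1%, 49.8% and 46.8% before thinning). In thinned excitatory neurons the Fkbp5 shares were 3.99%, 4.03%, 4.17% and 3.90%, so that the library did not stand apart there. Klf9, another glucocorticoid-induced gene that encodes a transcription factor, did not follow that order and had 26.6, 13.9, 34.7 and 50.8 CPM (1.11, SE 0.354, adjusted p = 0.219 by edgeR). Nlrp3, the inflammasome sensor, had 171, 74.8, 80.4 and 106 CPM. Of the 8 early response genes tested 7 were above 0 (median 0.21) and none was called. Egr1 had 45.1, 7.39, 47.3 and 43.1 CPM, low in non-pregnant replicate 2 only. Genes of dividing cells were scarce, with Mki67, Top2a, Bub1, Birc5 and Kif11 at 0.

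Whether pregnancy moved genes in microglia otherwise than in other classes was tested as an interaction with the mouse as a block. Against astrocytes 11 of 12001 genes differed (0.0917%), against oligodendrocytes 39 of 12068 (0.323%) and against excitatory neurons 326 of 19319 (1.69%). Without the high-depth nuclei these counts were 78 of 11976 (0.651%), 58 of 11939 (0.486%) and 121 of 19248 (0.629%). All 11 genes of the astrocyte contrast were neuron-enriched. The astrocyte class itself held more RNA of the neuron list than microglia did, as given above, and the part of that RNA in this contrast was not tested. The counts moved with single libraries. Against astrocytes 657 genes were called without non-pregnant replicate 1, 154 without non-pregnant replicate 2 and none without either pregnant library. Against oligodendrocytes 410 were called without non-pregnant replicate 1 and 1 and 6 without pregnant replicates 1 and 2. Against excitatory neurons 824 were called without non-pregnant replicate 1 and none without either pregnant library.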

How the data were processed

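Cortical nuclei of 4 biological replicates, 2 per group, were profiled with 10x Genomics chemistry, and the authors deposited whole-number UMI counts per gene and barcode. Per the submitters' processing notes, Cell Ranger 10.0.0 and build GRCm39 were used. The annotation release and the treatment of doublets are not given in the sources used here. Of 26816 barcodes, 466 were left out by the limits on genes and mitochondrial UMIs, and free RNA was not subtracted.

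UMIs of the microglia were summed per library (634618 to 1082214 UMIs) and tested with edgeR 4.0.16 (limma 3.58.1, R 4.3.3): TMM factors, a minimum count of 10 by filterByExpr, the robust quasi-likelihood fit, Benjamini-Hochberg adjustment over all genes tested and a threshold of 0.05. DESeq2 1.42.0 was an alternative. Differences between classes were fitted as an interaction with the mouse as a block. Doublets were scored against 2 simulated doublets per nucleus among 60 neighbours (Python 3.11.15, scikit-learn 1.9.0, scipy 1.17.1) and were left out only in an alternative. The members, gene lists and tests were chosen with earlier results of these data known.

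Genes named are the 12 called genes of smallest p in each direction whose groups did not overlap, filled up to 5 where fewer than 5 were called. Also named are the called members and up to 4 highest members of each list, the rule genes, the hormone receptors and the 12 leading genes of microglia, while predicted genes are counted only. Other genes were named after their values were seen: Hba-a1, Lars2, Nceh1, Pcsk1n and Vcan as called genes that are not neuron-enriched, Cmss1 and others called without the high-depth nuclei, and list members whose groups did not overlap. The share of all tested genes whose groups did not overlap is not given, so that trait of a named gene is a description. A few genes are not reported here. P-values rest on 2 libraries against 2. On simulated counts of 9921 genes, whose spread followed the trend over genes, the test for microglia made 7 false calls among 166.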

Additional observations from a re-analysis of the deposited data

Results flagged for a closer look

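The following named genes changed otherwise in microglia than in another class of nuclei, by edgeR's interaction test with all microglia counted. Each value is the log2 change in microglia minus that in the other class. Against excitatory neurons the difference was 2.02 for Tshz2, 2.49 for Sgcz, 2.70 for Khdrbs2, 2.38 for Mmp16, 2.46 for Nxph1 and 2.21 for Tenm4. It was 2.94 for Slit3, 2.71 for Galnt13, 2.75 for Cntn6, 1.92 for Dab1, 1.69 for Cntn1 and 2.22 for Robo2. For Nceh1 it was 1.16 and for Vcan 2.45. It was below 0 for Gab1 (-1.47) and Rin2 (-1.36), of which Rin2 did not pass within microglia themselves when all of them were counted.

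Against astrocytes the difference was 2.24 for Sgcz, 2.05 for Mmp16, 2.43 for Slit3 and 2.45 for Robo2. Against oligodendrocytes it was 1.99 for Khdrbs2, 1.90 for Cntn1 and 3.72 for Vcan. All genes with a difference above 0 except Vcan and Nceh1 are neuron-enriched.

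Many of these differences moved when the 16 nuclei of high depth were left out. Against excitatory neurons those of Robo2 (1.46), Nceh1 (1.16), Gab1 (-1.42) and Rin2 (-1.33) still passed. Those of the other 12 genes did not: Sgcz was at 0.41, Mmp16 at 0.54, Tenm4 at 0.80 and Cntn1 at 0.75, and Tshz2 (-0.74), Nxph1 (-0.08) and Vcan (-1.99) turned below 0. Against astrocytes Robo2 (1.69) still passed, and Sgcz (0.15), Mmp16 (0.19) and Slit3 (0.57) did not. Against oligodendrocytes Khdrbs2 (-0.49) and Cntn1 (0.88) did not pass, and Vcan could not be tested. No gene at all was called against excitatory neurons or astrocytes when either pregnant library was left out.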

How the results depend on the processing

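The share kept its direction under the settings run, and so did the changes in microglia of the genes followed through them, wherever tested. Those were mainly the called genes named above and the next ones by p with lower values. The other named genes, such as the members of the microglial lists, are not covered by that statement. Of the differences from another class, 4 turned without the high-depth nuclei, as given above. The count of called genes, 104, was 66 with DESeq2, which gave no adjusted p for 1362 genes, and 409 with no filter on low counts. It was 17 with neuron-enriched genes left out, 16 with a marker sum of at least 10, 6 with no UMI of Slc17a7, Gad1 or Gad2, 304 without the top 5% by doublet score and 499 with equal numbers of nuclei. Both limits on nuclei together gave 41, a setting chosen after seeing the data. It ranged from 81 to 823 on leaving out 1 library, and from 32 to 158 where the high-depth nuclei were left out too. Called list members, 0 with all nuclei, numbered 4 with no filter, 1 without doublets, 3 with equal numbers and 0 to 17 on leaving out 1 library. The genes whose change differed from another class numbered 332, 204 and 537 with no filter against astrocytes, oligodendrocytes and excitatory neurons, 78 and 121 against the first and last without the high-depth nuclei, and 0 to 657, 1 to 410 and 0 to 824 on leaving out 1 library. The log2 change of the share, -0.50, was -0.41 with no exclusion genes, -0.43 thinned, -0.39 without nuclei of no class and -0.34 to -0.68 on leaving out 1 library, and none of these passed. Among nuclei that are not neurons it was -0.89 (adjusted p = 0.0156 by edgeR), and it passed with 4 other limits on nuclei (-0.50 to -0.54). The difference in neuronal UMIs, 0.164 percentage points, was 0.0369 with no neuronal UMI in the rule and 0.0561 without the high-depth nuclei. The cause of these shifts was not tested, beyond the number of genes, nuclei or libraries that each setting takes out.

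The labels do not say that a number marks a shared litter, batch or day, and with 2 libraries a group the deviations of same-numbered libraries give 1 correlation (-0.105), which cannot settle a pairing. With the replicate block 68 genes were called and the log2 change of the share was -0.51 (adjusted p = 0.140 by edgeR). With the crossed pairing, added after seeing the data, 160 genes were called.

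Depth limits the low genes: microglia held few UMIs each, a count of 0 over all microglia allows up to 0.834 CPM, and changes under log2 1 were not simulated.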
